A study of Mus musculus with 11 samples.

Results

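The Serpina3 gene cluster of the mouse is a row of related genes on chromosome 12 that encode protease inhibitors of the antichymotrypsin type. It was examined here in bulk sequencing of polyadenylated RNA from 11 libraries of mice that lack Nfasc, Ank3 or both in cells expressing Pcp2-Cre. Its members were taken as every gene of the count table named Serpina3 plus a letter from a to n with at least 10 reads over the 11 libraries, which selected 7 of 11 such genes among the 22609 genes listed. The members were thus chosen by their names and by their total counts over these same libraries, and the cluster was taken up because Serpina3n and Serpina3f had already been seen to be high in both single knockouts. The levels of these genes and their differences between genotypes are therefore given as a description. Just inside the limit stood Serpina3i with 24 reads in total and Serpina3h with 73, and just outside it stood Serpina3k with 4 and Serpina3b with 3, while Serpina3j had 1 read and Serpina3a had 0. All 7 members also held at least 10 reads outside the genotype in which they were highest (13 reads for Serpina3i and 44 for Serpina3h at the low end). All 7 were among the 17557 genes tested.

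The 4 groups were control (3 libraries), NFKO (3 libraries, Pcp2-Cre with both Nfasc alleles floxed), AnkGKO (2 libraries, Pcp2-Cre with both Ank3 alleles floxed) and DKO (3 libraries, Pcp2-Cre with all of these alleles floxed). Nfasc encodes the adhesion molecule neurofascin, Ank3 encodes the scaffold ankyrin G, and both proteins build the axon initial segment. By the study's methods the controls were mice with floxed alleles and no Cre, although its results text writes a Cre-carrying genotype for them, so every group carried floxed alleles. The mice were untreated littermates on a mixed C57BL/6J;129 background, of mixed sex, and the labels give an age of postnatal day 30 in one field and postnatal day 32 in another. Pcp2-Cre acts mainly in Purkinje cells, whereas the RNA came from whole dissected tissue, in which Purkinje cells are a small part. In such bulk samples, fewer cells of a type and less RNA per cell cannot be told apart.

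Several properties of the libraries touch every value below. Reads on genes totalled 38890851 to 55822361 per library, so that 3 reads, the floor used here, equal 0.0546 to 0.0780 counts per 1000000 reads (CPM, scaled by edgeR's TMM factors), which covers counting error only. Ank3 was at 353 to 375 CPM in control, 385 to 407 in NFKO, 156 and 200 in AnkGKO and 160 to 185 in DKO. Nfasc was at 661 to 718 CPM in control, 622 to 701 in NFKO, 717 and 953 in AnkGKO and 559 to 606 in DKO. NFKO overlapped control, so in whole tissue Nfasc does not check the NFKO label, whereas all DKO libraries lay below all controls. The label "cerebellar hemisphere" was at odds with part of the markers. The Purkinje cell gene Pcp2 ranged from 0.0929 to 28.3 CPM and the granule cell gene Gabra6 from 0.0186 to 84.2 CPM. In control and NFKO, Pcp2 was at 26.3 and 28.3 CPM in replicate 1, 1.43 and 2.14 in replicate 2 and 0.167 and 0.0929 in replicate 3. It was at 0.374 CPM or less in every AnkGKO and DKO library. The 12 Hox genes of groups 6 to 9, which mark spinal levels, summed to 395 to 615 CPM in every library. The sex-linked genes were unevenly spread: all NFKO and AnkGKO libraries had Ddx3y at 89.6 to 103 CPM and Xist at 1.39 CPM or less, as did control replicate 3 (Ddx3y 101 CPM), whereas control replicate 2 and DKO replicates 2 and 3 had Xist at 459 to 598 CPM. Control replicate 1 (Xist 464 CPM, Ddx3y 7.20 CPM) and DKO replicate 1 (Xist 28.4 CPM, Ddx3y 108 CPM) held both transcripts. Every library of a single knockout was thus Y-bearing, which held for only some control and DKO libraries, and values from the Y-bearing libraries are given beside the main ones.

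Serpins inhibit proteases by offering an exposed reactive centre loop as bait. Once the protease cuts the loop, the serpin changes its fold and traps the enzyme. The sequence of the loop sets which proteases are bound. Where humans have a single antichymotrypsin gene, SERPINA3, the mouse has a cluster of copies that differ most in this loop. Serpina3n is the member best known in the nervous system, where it is made by reactive astrocytes and by oligodendrocytes in injury and disease, is induced by inflammatory cytokines through STAT3 and by glucocorticoids, and inhibits granzyme B and leukocyte elastase. Serpina3f and Serpina3g are known mainly from blood and immune cells, and Serpina3c, Serpina3k and Serpina3m are known mainly from liver and other peripheral tissue.

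The loops of the 6 protein-coding members are shown because the loop is the part that meets the protease and the part in which these related proteins differ most. Each stretch was read 5′ to 3′ on the coding strand from the coding sequence of GENCODE vM39 on GRCm39, from the conserved hinge to the conserved end of the loop. Capitals mark the variable part between these conserved ends, which is 49 bases in Serpina3c, 61 in Serpina3f and 58 in the others.
Serpina3n: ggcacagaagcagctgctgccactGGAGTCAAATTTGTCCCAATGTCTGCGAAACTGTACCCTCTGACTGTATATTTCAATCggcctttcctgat
Serpina3f: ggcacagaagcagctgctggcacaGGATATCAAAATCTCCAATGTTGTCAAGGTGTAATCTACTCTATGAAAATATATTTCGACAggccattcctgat
Serpina3m: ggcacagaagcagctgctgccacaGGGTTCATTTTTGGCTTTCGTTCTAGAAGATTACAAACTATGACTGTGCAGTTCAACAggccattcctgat
Serpina3c: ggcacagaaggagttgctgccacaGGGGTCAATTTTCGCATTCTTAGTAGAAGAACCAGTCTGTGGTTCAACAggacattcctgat
Serpina3g: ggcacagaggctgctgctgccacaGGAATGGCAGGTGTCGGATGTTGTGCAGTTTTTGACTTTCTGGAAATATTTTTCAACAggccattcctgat
Serpina3i: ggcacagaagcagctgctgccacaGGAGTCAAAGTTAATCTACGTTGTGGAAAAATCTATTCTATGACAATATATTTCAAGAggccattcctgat
Over the whole coding sequence Serpina3f was 85.5% identical to Serpina3n and 81.4% identical to Serpina3m, and Serpina3m was 84.6% identical to Serpina3n. In the variable stretch these identities were 70.9%, 55.2% and 55.2%. By the coding sequence, the pairs closest to each other were Serpina3f with Serpina3i (91.3%, and 69.0% in the variable stretch) and Serpina3c with Serpina3m (88.7% and 81.6%). In the variable stretch alone Serpina3f was closer to Serpina3n than to Serpina3i. Serpina3h is annotated as a long non-coding RNA and has no coding sequence.

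The cluster spans 302 kb of GRCm39, from base 104078983 to base 104380597 of chromosome 12. From its proximal end the members lie in the order Serpina3c (104110471 to 104141177, minus strand), Serpina3f (104180772 to 104187388), Serpina3g (104202386 to 104208203), Serpina3h (104214042 to 104220679), Serpina3i (104229363 to 104238677), Serpina3m (104304745 to 104361078) and Serpina3n (104372810 to 104380597), all but the first on the plus strand. The gene model of Serpina3m overlaps that of Serpina3k on the same strand, so reads in the overlap cannot be assigned with certainty, although Serpina3k itself held 4 reads in all 11 libraries. How far reads could be mistaken between copies was measured as the share of 50-base words in a gene's transcripts that also occur in another gene. This share was 3.30% for Serpina3n, 3.65% for Serpina3c, 10.4% for Serpina3f, 8.22% for Serpina3m, 8.01% for Serpina3h and 7.97% for Serpina3i, and at 100 bases it was 0.0887% for Serpina3n. Serpina3f and Serpina3m shared no 50-base word with each other, and 0.905% of the words of Serpina3f occurred in Serpina3n. Serpina3g stood apart at 38.6%, of which 36.0% fell on the predicted gene Gm56487, so its counts are uncertain.

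Promoters are shown for Serpina3n and Serpina3f, the gene with the most reads and the called member with the widest fold difference from control. Serpina3m had no RefSeq window. The windows run from 250 bases before to 50 bases after the transcript start as listed by RefSeq (table build GRCm38.p6) and were placed on GRCm39 by exact match, Serpina3n at chr12:104372717-104373016 and Serpina3f at chr12:104180553-104180852, both on the plus strand. Capitals mark the longest run of bases found in the windows of every member that had one (Serpina3c, Serpina3f, Serpina3g, Serpina3i and Serpina3n).
Serpina3n promoter: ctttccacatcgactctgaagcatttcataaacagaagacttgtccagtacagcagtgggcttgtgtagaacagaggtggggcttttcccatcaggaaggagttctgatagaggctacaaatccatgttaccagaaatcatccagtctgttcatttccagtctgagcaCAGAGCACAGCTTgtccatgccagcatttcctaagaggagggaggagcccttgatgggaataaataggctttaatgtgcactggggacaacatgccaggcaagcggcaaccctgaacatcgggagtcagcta
Serpina3f promoter: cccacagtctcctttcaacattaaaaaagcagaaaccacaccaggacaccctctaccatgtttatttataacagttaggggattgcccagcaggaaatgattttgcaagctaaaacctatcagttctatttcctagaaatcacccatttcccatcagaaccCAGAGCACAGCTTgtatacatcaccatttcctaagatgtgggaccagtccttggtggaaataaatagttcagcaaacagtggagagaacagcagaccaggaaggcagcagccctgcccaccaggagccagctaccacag
This run of 13 bases was present in 7 of 32851 RefSeq promoter windows (0.0213%). These include the windows of Serpina3c, Serpina3f, Serpina3g, Serpina3i and Serpina3n from which it was picked, and a further window of Serpina3f. Its rarity therefore follows largely from how it was chosen. The Serpina3n window was 93.5% identical to that of Serpina3c and 68.3% identical to that of Serpina3f, and the Serpina3f window was 83.7% identical to that of Serpina3g. Among motifs of factors that act on acute-phase genes, the STAT motif TTCNNNGAA, which reads the same on both strands, stood in the windows of Serpina3f, Serpina3g and Serpina3i and in 8.30% of all windows. Searched on both strands, the C/EBP motif TTGCNNAA stood in the windows of Serpina3f and of no other member, against 10.8% of all windows. These matches describe the letters only.

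Serpina3n carried most of the reads of the cluster, 81814 of 88216 over all libraries (92.7%). It was the most abundant member per length in every genotype, with means of 18.7, 61.2, 58.1 and 23.6 CPM per kb of exon in control, NFKO, AnkGKO and DKO. Serpina3n had 2807, 3758 and 2956 reads in the control libraries, 12387, 11274 and 14197 in NFKO, 13107 and 8452 in AnkGKO, and 4407, 3842 and 4627 in DKO. Both single knockouts thus stood above every control and every DKO library, the lower AnkGKO library included. Its mean level was 73.0 ± 2.65 CPM in the control libraries, 239 ± 23.4 in the NFKO libraries, 227 ± 61.4 in the AnkGKO pair and 92.2 ± 9.56 in the DKO libraries (SD over 3, 3, 2 and 3 libraries). The order of the means was NFKO, AnkGKO, DKO and control. NFKO (217 to 264 CPM) and AnkGKO (184 and 270 CPM) overlapped, whereas DKO (84.2 to 103 CPM) and control (70.4 to 75.7 CPM) did not. Relative to control, the log2 fold change of Serpina3n was 1.71 in NFKO (standard error 0.13, a 3.28-fold higher level) and 1.64 in AnkGKO (standard error 0.14, 3.11-fold), and both passed the calling rule of an adjusted p under 0.05 together with a log2 fold change of 0.6 or more in size. In DKO it was 0.34 (standard error 0.13, adjusted p = 0.619, edgeR), which met neither part of the rule.

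Serpina3f and Serpina3m were close to absent outside the single knockouts. Serpina3f, known mainly from immune cells, had 13, 2 and 8 reads in control, 434, 386 and 473 in NFKO, 501 and 235 in AnkGKO, and 20, 4 and 7 in DKO. Its mean level was 0.190 ± 0.149 CPM in the control libraries, 8.17 ± 0.686 in the NFKO libraries, 7.72 ± 3.70 in the AnkGKO pair and 0.229 ± 0.206 in the DKO libraries (SD over 3, 3, 2 and 3 libraries). No library of a single knockout came near the other libraries, the nearest being AnkGKO replicate 2 at 5.11 CPM and DKO replicate 1 at 0.467 CPM. Set against control, Serpina3f had a log2 fold change of 5.48 in NFKO (standard error 0.64), 5.39 in AnkGKO (standard error 0.66) and 0.30 in DKO (standard error 0.77), of which the first and the second passed the rule. These are fitted 44.5-fold and 42.1-fold differences, and their size rests on the few control reads.

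Serpina3m had almost the same counts as Serpina3f, with 17, 3 and 10 reads in control, 469, 427 and 451 in NFKO, 512 and 227 in AnkGKO, and 17, 1 and 0 in DKO. Its mean was 0.247 ± 0.191 CPM in the control libraries, 8.53 ± 0.395 in the NFKO libraries, 7.75 ± 3.98 in the AnkGKO pair and 0.140 ± 0.223 in the DKO libraries (SD over 3, 3, 2 and 3 libraries). As for Serpina3f, the single knockouts and the remaining libraries did not overlap. Set against control, Serpina3m had a log2 fold change of 5.15 in NFKO (standard error 0.87, adjusted p = 0.0558, edgeR) and 5.02 in AnkGKO (standard error 0.90, adjusted p = 0.118, edgeR), so neither passed the rule in spite of its size. Serpina3m in NFKO passed in 7 of 20 alternatives. With the replicate number as a block, the NFKO value was 5.32 and passed (standard error 0.71, adjusted p = 0.0431, edgeR). It also passed with only the libraries compared (adjusted p = 0.00634, edgeR), with edgeR's expression filter (0.0444) and without DKO replicate 1 or 3 (0.00400 and 0.0289). DESeq2 called it as well (adjusted p = 0.00188, DESeq2). Per kb of exon Serpina3f exceeded Serpina3m in both single knockouts, with 3.52 and 2.07 CPM per kb in NFKO and 3.33 and 1.88 in AnkGKO.

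**Figure D1:**
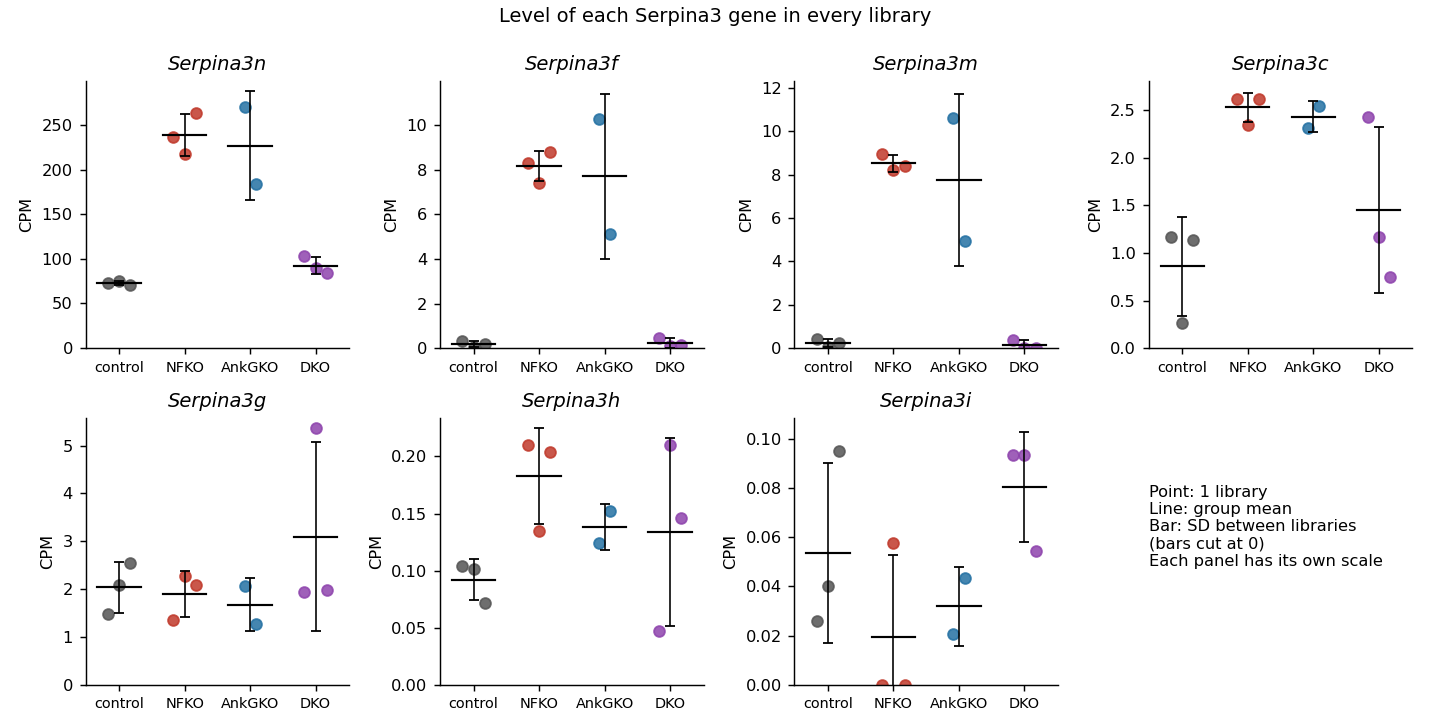
Level in CPM (vertical axis, linear and separate for each panel) of the 7 Serpina3 genes in every library of control, NFKO, AnkGKO and DKO (horizontal axis), with a point per library, a line at the group mean and a bar of 1 SD. Serpina3n, Serpina3f and Serpina3m were high in all NFKO and AnkGKO libraries, whereas Serpina3c and Serpina3h in DKO spanned the gap between control and NFKO and Serpina3g overlapped between all genotypes.

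Serpina3c, a member known from adipose tissue and liver, was lower in abundance. It had 45, 13 and 48 reads in control, 137, 122 and 141 in NFKO, 112 and 117 in AnkGKO, and 104, 50 and 41 in DKO. Both single knockouts lay above all controls, and DKO spanned the gap. Its mean was 0.858 ± 0.517 CPM in the control libraries, 2.53 ± 0.156 in the NFKO libraries, 2.43 ± 0.163 in the AnkGKO pair and 1.45 ± 0.874 in the DKO libraries (SD over 3, 3, 2 and 3 libraries). The log2 fold change was 1.57 in NFKO (standard error 0.51, adjusted p = 0.432, edgeR), 1.51 in AnkGKO (standard error 0.56, adjusted p = 0.758, edgeR) and 0.76 in DKO (standard error 0.52, adjusted p = 0.713, edgeR), none of which passed. DESeq2 called Serpina3c in NFKO (adjusted p = 0.0459, DESeq2).

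Serpina3g, the member best known from activated T cells and macrophages, had 57, 104 and 107 reads in control, 71, 118 and 112 in NFKO, 100 and 59 in AnkGKO, and 83, 230 and 109 in DKO. All groups overlapped, and the widest value came from DKO replicate 2 at 5.37 CPM. Its log2 fold change was -0.10 in NFKO (standard error 0.41, adjusted p = 0.999, edgeR), -0.29 in AnkGKO (standard error 0.46) and 0.60 in DKO (standard error 0.41, adjusted p = 0.713, edgeR), and without DKO replicate 2 the last of these was -0.062. In control libraries Serpina3g was the most abundant member after Serpina3n, at 0.763 CPM per kb against 0.144 for Serpina3c, 0.0817 for Serpina3f and 0.0599 for Serpina3m, whereas in both single knockouts Serpina3f and Serpina3m were above it.

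Serpina3h and Serpina3i were near the counting floor. Serpina3h had 3 to 5 reads in control, 7 to 11 in NFKO, 6 and 7 in AnkGKO and 2 to 9 in DKO, with log2 fold changes of 0.97 (standard error 0.55, adjusted p = 0.769, edgeR), 0.57 (standard error 0.63) and 0.53 (standard error 0.57). Serpina3i had 4 reads at most in any library, 0 in NFKO replicates 1 and 3, and a log2 fold change of -1.38 in NFKO (standard error 1.14, adjusted p = 0.897, edgeR). A difference in either gene was not detectable at this depth.

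The comparison of NFKO with control asks what the loss of neurofascin in Cre-expressing cells changed. Of the 7 members, 2 were called higher (Serpina3n and Serpina3f) and 0 lower, where 0.199% of all genes tested were called higher. In 5 members (Serpina3c, Serpina3f, Serpina3h, Serpina3m and Serpina3n) all NFKO libraries lay above all controls, as they did for 7.42% of all genes. The median log2 fold change of the members was 1.57, against -0.0050 over all genes tested. Since this contrast was among those that led to the choice of these genes, the counts describe the members and are not read further. DESeq2 called 4 members (Serpina3c, Serpina3f, Serpina3m and Serpina3n), where it called 0.906% of all genes in either direction.

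AnkGKO against control, which asks the same of ankyrin G, uses the same control libraries. There 2 members were called higher (Serpina3n and Serpina3f), where 0.120% of all genes were, and the same 5 members as in NFKO lay above all controls, as did 11.7% of all genes. The median of the members was 1.51, against -0.0050 over all genes. DESeq2 called 3 members, Serpina3m among them (adjusted p = 0.0199, DESeq2), where it called 0.581% of all genes. This group has only 2 libraries, and the call for Serpina3f was lost without AnkGKO replicate 1 (log2 fold change 4.79, adjusted p = 0.0671, edgeR) and without control replicate 3 (5.43, adjusted p = 0.0941, edgeR). Within AnkGKO, replicate 1 was the higher library for Serpina3n, Serpina3f, Serpina3m and Serpina3g, and replicate 2 for Serpina3c and Serpina3h.

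**Figure D2:**
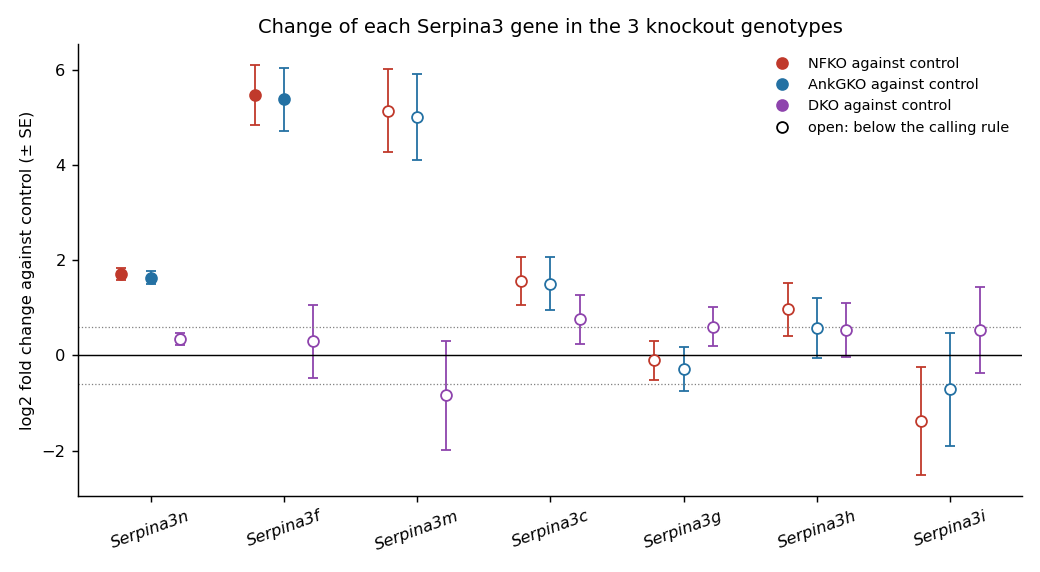
Log2 fold change against control with its standard error (vertical axis) of the 7 Serpina3 genes (horizontal axis) in NFKO, AnkGKO and DKO, where filled points passed the calling rule and open points did not. Serpina3f and Serpina3m stood above 5 in both single knockouts, and no point of DKO was filled.

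In DKO, where both genes are targeted, no member was called against the same controls, where 0.0228% of all genes were called in either direction. At an unadjusted p under 0.05 there was 1 member, Serpina3n, against 7.77% of all genes, and DESeq2 called 0, against 0.251% of all genes. Serpina3n was also the only member whose DKO and control libraries did not overlap, as they did not for 14.4% of all genes. The median over the members was 0.53, against -0.00062 over all genes. For Serpina3f the sign of the DKO difference depended on single libraries: it was 0.30 with all libraries, -0.23 without control replicate 2 and -0.68 without DKO replicate 1.

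Set directly against NFKO, DKO had lower levels of 3 members, Serpina3f, Serpina3m and Serpina3n, where 0.319% of all genes were called lower. The log2 fold changes were -5.17 for Serpina3f (standard error 0.61), -5.99 for Serpina3m (standard error 0.93, adjusted p = 0.0296, edgeR) and -1.38 for Serpina3n (standard error 0.13). The Serpina3m value leans on DKO replicate 1, without which the remaining DKO libraries hold 1 and 0 reads and the fitted value is -9.37. Its call was lost without control replicate 3, NFKO replicate 1 or NFKO replicate 2 (adjusted p = 0.0639, 0.0963 and 0.0747, edgeR).

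Against AnkGKO, the same DKO libraries gave 2 lower calls, Serpina3f at -5.09 (standard error 0.64) and Serpina3n at -1.30 (standard error 0.14), where 0.125% of all genes were called lower. Serpina3m was at -5.85 (standard error 0.96, adjusted p = 0.0838, edgeR), and passed in 3 of 20 alternatives. Among these were the fit without DKO replicate 1 (-9.23, adjusted p = 0.0116, edgeR) and DESeq2 (-5.80, adjusted p = 0.00280, DESeq2). All 3 genes lay below AnkGKO in every DKO library, as did 11.3% of all genes, and Serpina3i lay above it on 4 reads or fewer. The Serpina3f call was lost without AnkGKO replicate 1 (-4.49, adjusted p = 0.0876, edgeR) and without DKO replicate 3 (-4.77, adjusted p = 0.0994, edgeR).

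Between the single knockouts no member differed by the rule. The log2 difference, NFKO minus AnkGKO, was 0.076 for Serpina3n (standard error 0.15), 0.082 for Serpina3f (standard error 0.52), 0.14 for Serpina3m (standard error 0.74, adjusted p = 0.988, edgeR) and 0.061 for Serpina3c (standard error 0.54). No member passed an unadjusted p under 0.05 either, where 7.63% of all genes did, DESeq2 called 0, and 0.404% of all genes were called in either direction. The standard errors show that for Serpina3f and Serpina3m a difference of about 1 log2 unit between the single knockouts could not have been told from none.

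The interaction, the change in DKO minus the summed changes of both single knockouts, asks whether these changes add on the log2 scale. It was -3.01 for Serpina3n (standard error 0.20), -10.57 for Serpina3f (standard error 0.90) and -11.01 for Serpina3m (standard error 1.30, adjusted p = 0.00935, edgeR), and these 3 members were called lower, where 0.319% of all genes were. Without DKO replicate 1 the Serpina3m value was -14.39. Serpina3n and Serpina3f were taken up because they were high in both single knockouts, and this contrast subtracts those changes. Low values were thus partly set by the choice of genes and are given as a description. Serpina3c was at -2.33 (standard error 0.75, adjusted p = 0.301, edgeR), though DESeq2 called it (-2.32, adjusted p = 0.0346, DESeq2). In the test for any difference among the 4 genotypes, which 0.723% of all genes passed at an adjusted p under 0.05, Serpina3m had an adjusted p of 0.0288 (edgeR), and Serpina3c (0.430), Serpina3g (0.663), Serpina3h (0.762) and Serpina3i (0.707) did not pass.

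Because the Y-bearing libraries were unevenly spread, the differences were also computed within the 7 libraries with Ddx3y above 50 CPM, which leave 1 control and 1 DKO library, so that each of these is assumed to vary like the other groups. There Serpina3n was at 1.76 in NFKO and 1.69 in AnkGKO against the remaining control (adjusted p = 0.137 and 0.261, edgeR), and Serpina3f was at 5.32 in AnkGKO (adjusted p = 0.0886, edgeR). Against control these sizes were about as large within these libraries as over all, but the differences from DKO were smaller for Serpina3f, at -4.12 in DKO against NFKO and -4.04 in DKO against AnkGKO, and Serpina3f in DKO against control was at 1.28. Serpina3n in control replicate 3, the Y-bearing control, was at 70.4 CPM, the lowest of the controls. With Xist as a covariate the log2 fold change of Serpina3f was 5.0 in NFKO and 4.89 in AnkGKO and no longer passed (adjusted p = 0.164 and 0.272, edgeR). The libraries that held both Xist and Ddx3y, control replicate 1 and DKO replicate 1, had the highest Serpina3f and Serpina3m levels of their groups. Leaving both out gave interactions of -12.25 for Serpina3f and -15.11 for Serpina3m. Their part in the low values of control and DKO was not tested.

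The make-up of the cluster's reads differed between the libraries with high and low totals. Serpina3n held 91.4% to 96.6% of the cluster's reads in every library. For each 100 reads of Serpina3n there were 3.33 to 3.50 reads of Serpina3f in NFKO and 3.82 and 2.78 in AnkGKO, but 0.0532 to 0.463 in control and 0.104 to 0.454 in DKO. The ratio of Serpina3m to Serpina3f reads stayed between 0.953 and 1.11 in NFKO and was 1.02 and 0.966 in AnkGKO, although these genes share no 50-base word. In libraries with few reads of either gene it was 1.25 to 1.5 in control and 0.850, 0.250 and 0 in DKO, on 20 reads or fewer.

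**Figure D3:**
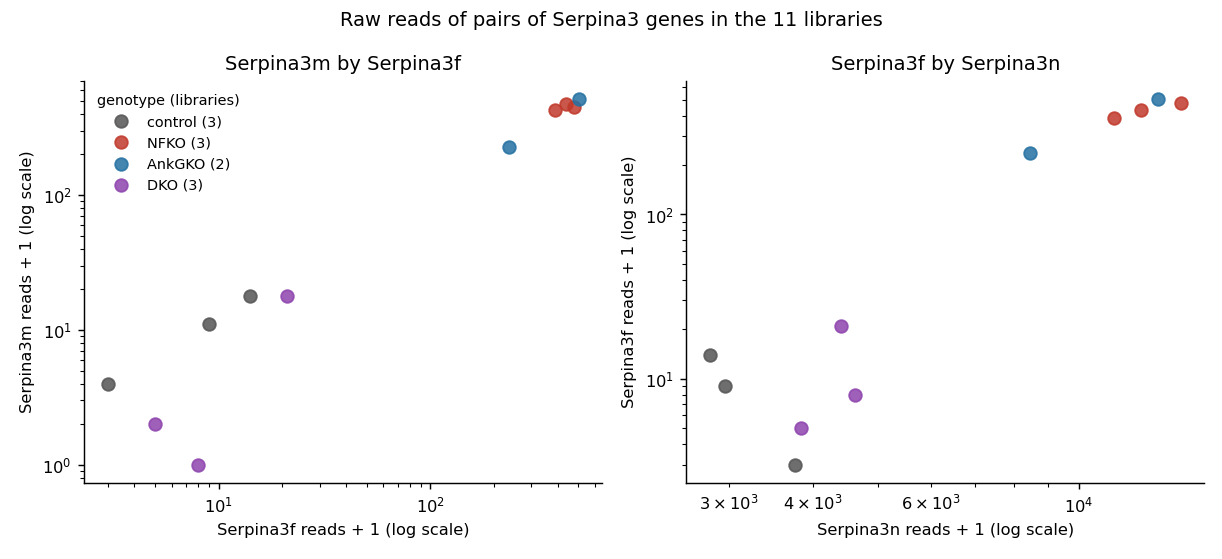
Raw reads plus 1 on log axes for Serpina3m against Serpina3f (left) and Serpina3f against Serpina3n (right), with a point per library coloured by genotype. The 5 libraries of the single knockouts form a group at 235 or more Serpina3f reads, and all control and DKO libraries hold 20 or fewer.

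Across the 11 libraries, which share the genotype split, log2 CPM of Serpina3f correlated with that of Serpina3m at r = 0.997, Serpina3n with Serpina3f at 0.982 and Serpina3n with Serpina3m at 0.969. After the genotype means were taken out, r was 0.982, 0.782 and 0.727. These points share their libraries and depth, and the values are a description. Serpina3c followed Serpina3f at 0.800 (0.608 within genotypes), while Serpina3g was at -0.288 with Serpina3n.

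Cell type markers were summed in each library as a check of the tissue. Purkinje cell markers were at 315 to 1109 CPM in control, 304 to 1215 in NFKO, 293 and 304 in AnkGKO and 298 to 342 in DKO. Granule cell markers were at 134 to 797 CPM in control, 140 to 677 in NFKO, 120 and 146 in AnkGKO and 119 to 158 in DKO. Markers of astrocytes, a main source of Serpina3n, summed to 8194 to 8653 CPM in control, 7667 to 8878 in NFKO, 10284 to 10849 in AnkGKO and 9104 to 9536 in DKO. NFKO thus overlapped control, whereas AnkGKO and DKO lay above it. Oligodendrocyte markers ran from 26565 to 32568 CPM over all libraries. Microglia markers were at 376 to 464 CPM in control, 439 to 470 in NFKO, 510 and 536 in AnkGKO and 412 to 540 in DKO, so AnkGKO lay above control. Meningeal fibroblast markers were at 460 to 1431 CPM in NFKO against 139 to 395 in control, 146 to 368 in AnkGKO and 98.8 to 331 in DKO. Neutrophil markers were at 13.8 to 31.1 CPM in NFKO, 4.69 to 17.0 in control, 6.76 and 12.0 in AnkGKO and 4.71 to 101 in DKO, with the defining gene Elane at 0 in 4 libraries. Hepatocyte markers, relevant because several members are liver genes, summed to 0.652 to 7.07 CPM, with Fgb at 0 in all 11 libraries and Alb at 0 in 5. The part of these cell types in the levels of the members was not tested.

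Genes of the pathways known to act on the cluster were followed in 9 lists. The lists covered acute phase and STAT3 signalling, glucocorticoid response, NF-kB and inducing cytokines, the proteases that such serpins inhibit, shared, A1 and A2 reactive astrocyte genes, disease-associated oligodendrocyte genes and other brain serpins. None of their 117 genes tested was called in any of the comparisons by edgeR. At an unadjusted p under 0.05 there were 23 in NFKO (19.7%), 10 in AnkGKO (8.55%) and 21 in DKO (17.9%) against control, where 7.69%, 5.39% and 7.77% of all genes had one. DESeq2 called 1 (Zbtb16), 2 (Cd14 and Zbtb16) and 1 (C3), where it called 0.906%, 0.581% and 0.251% of all genes. In DKO against NFKO 37 genes had an unadjusted p under 0.05 (31.6%, against 16.2% of all genes). DESeq2 called 10, where it called 2.38% of all genes. Of these, Gfap, Cd44, C4b, S100a10, Cd109, Mt1, Per1 and Sgk1 were higher in DKO and Gbp2 and Serpind1 were lower. The counts were 6 (5.13%, against 8.48% of all genes) and 1 in DKO against AnkGKO, 14 (12.0%, against 7.63%) and 1 in NFKO against AnkGKO, and 21 (17.9%, against 10.3%) and 4 in the interaction. Over all genes DESeq2 called 0.564%, 1.13% and 1.79% in these comparisons.

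For acute phase and STAT3 signalling (25 genes tested) the median log2 fold change was 0.048 in NFKO, 0.18 in AnkGKO and 0.21 in DKO, and for the glucocorticoid response (16 genes) it was 0.12, 0.20 and 0.47. NF-kB and inducing cytokines (15 genes) stood at 0.18, 0.27 and 0.14. Over all genes tested the medians were -0.0050, -0.0050 and -0.00062. Of 12 shared reactive astrocyte genes, 9, 7 and 10 had a value above 0 in NFKO, AnkGKO and DKO, with medians of 0.15, 0.25 and 0.31. Of 12 A1 genes these counts were 9, 7 and 8, with medians of 0.39, 0.11 and 0.093.

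None of the single genes of these pathways described next passed the calling rule. Stat3, the transcription factor of the acute phase response, had means of 114, 116, 133 and 148 CPM in control, NFKO, AnkGKO and DKO. Osmr, the oncostatin M receptor, was at 8.53, 8.96, 10.2 and 10.6 CPM, and Socs3, the feedback inhibitor of STAT3, was at 2.45, 2.89, 2.87 and 2.99 CPM. Gfap, the intermediate filament of astrocytes, was at 1887 ± 284 CPM in the control libraries, 1477 ± 71.5 in the NFKO libraries, 2793 ± 369 in the AnkGKO pair and 2423 ± 557 in the DKO libraries (SD over 3, 3, 2 and 3 libraries). Lcn2, a secreted acute-phase protein often listed beside Serpina3n, was at 1.13 ± 0.187 CPM in the control libraries, 4.86 ± 4.42 in the NFKO libraries, 4.11 ± 3.29 in the AnkGKO pair and 3.56 ± 2.92 in the DKO libraries (SD over 3, 3, 2 and 3 libraries). The glucocorticoid receptor gene Nr3c1 was at 101, 110, 117 and 101 CPM and its target Fkbp5 at 45.8, 49.5, 52.4 and 60.7 CPM. Zbtb16, another glucocorticoid target, had log2 fold changes of -1.60 in NFKO and -1.65 in AnkGKO (adjusted p = 0.242 and 0.467, edgeR).

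Of 15 proteases listed as targets of such serpins, 12 were tested, with medians of 0.35 in NFKO, 0.088 in AnkGKO and 0.29 in DKO, and their levels differed widely. The group means of the leukocyte proteases cathepsin G (Ctsg) and neutrophil elastase (Elane) were at most 0.177 and 0.475 CPM, whereas kallikrein 6 (Klk6), made by oligodendrocytes, was at 150, 161, 179 and 138 CPM in control, NFKO, AnkGKO and DKO and tissue plasminogen activator (Plat) was between 66.7 and 83.1 CPM in all 4. Among serpins outside the cluster, the neuronal inhibitor neuroserpin (Serpini1) was at 148, 145, 137 and 147 CPM in control, NFKO, AnkGKO and DKO, and protease nexin (Serpine2) was at 356, 309, 352 and 336 CPM. Over 33 serpin genes tested outside the cluster the medians were 0.045, -0.056 and 0.0067. Single genes of low level had wide fitted values in NFKO, from -4.81 (Serpina12) to 6.51 (Serpina1b) on the log2 scale. Neither passed there (adjusted p = 0.422 and 0.0745, edgeR), and Serpina12 was at 0 CPM in NFKO, so its fitted size has no meaning. Serpina1b, described next, was the 1 gene called by edgeR, in the interaction. DESeq2 called 1 in NFKO against control, 4 in DKO against NFKO, 1 in NFKO against AnkGKO and 2 in the interaction. Its shares of all genes were 0.906%, 2.38%, 1.13% and 1.79%.

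**Figure D4:**
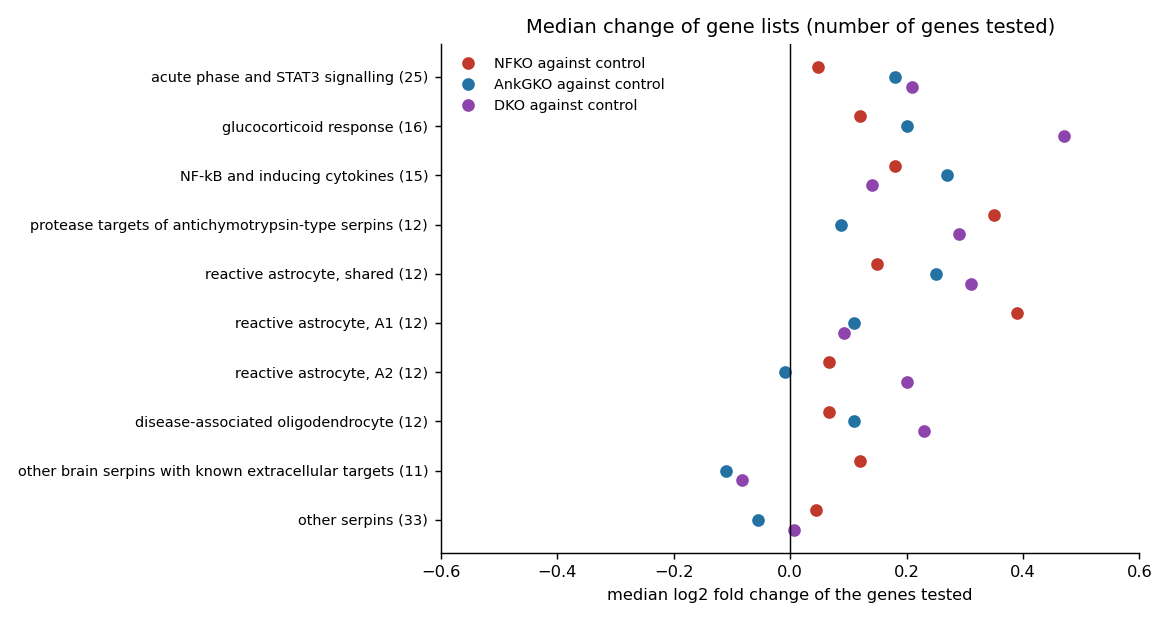
Median log2 fold change against control (horizontal axis) of the genes tested in 9 pathway lists and in all other serpins (vertical axis, number of genes in brackets), with a point each for NFKO, AnkGKO and DKO. The medians ran from -0.11 to 0.47.

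Of 35 genes of the table within 1 Mb of the cluster 21 were tested. DESeq2 called 2 in NFKO against control, 2 in DKO against NFKO and 2 in the interaction. Its shares of all genes were 0.906%, 2.38% and 1.79%. By edgeR 1 was called in any comparison, Serpina1b, an alpha-1-antitrypsin gene of liver at -678 kb from the start of Serpina3n. It had 5, 2 and 0 reads in control, 164, 410 and 246 in NFKO, 92 and 8 in AnkGKO, and 5, 8 and 0 in DKO. Its log2 fold change was 6.51 in NFKO (adjusted p = 0.0745, edgeR) and 4.20 in AnkGKO (adjusted p = 0.589, edgeR). The neighbouring Serpina1c had 10, 8 and 14 reads in NFKO and 7 and 0 in AnkGKO, Serpina1e had 10, 20 and 11 and then 5 and 0, and Serpina1a had 2, 3 and 2 and then 3 and 1, against 2 reads or fewer of each in every control and DKO library. None of these 3 was called by edgeR. Unlike Serpina3f, Serpina1b was near its control level in AnkGKO replicate 2. The median over the neighbours tested was 0.080 in NFKO, 0.067 in AnkGKO and 0 in DKO.

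**Figure D5:**
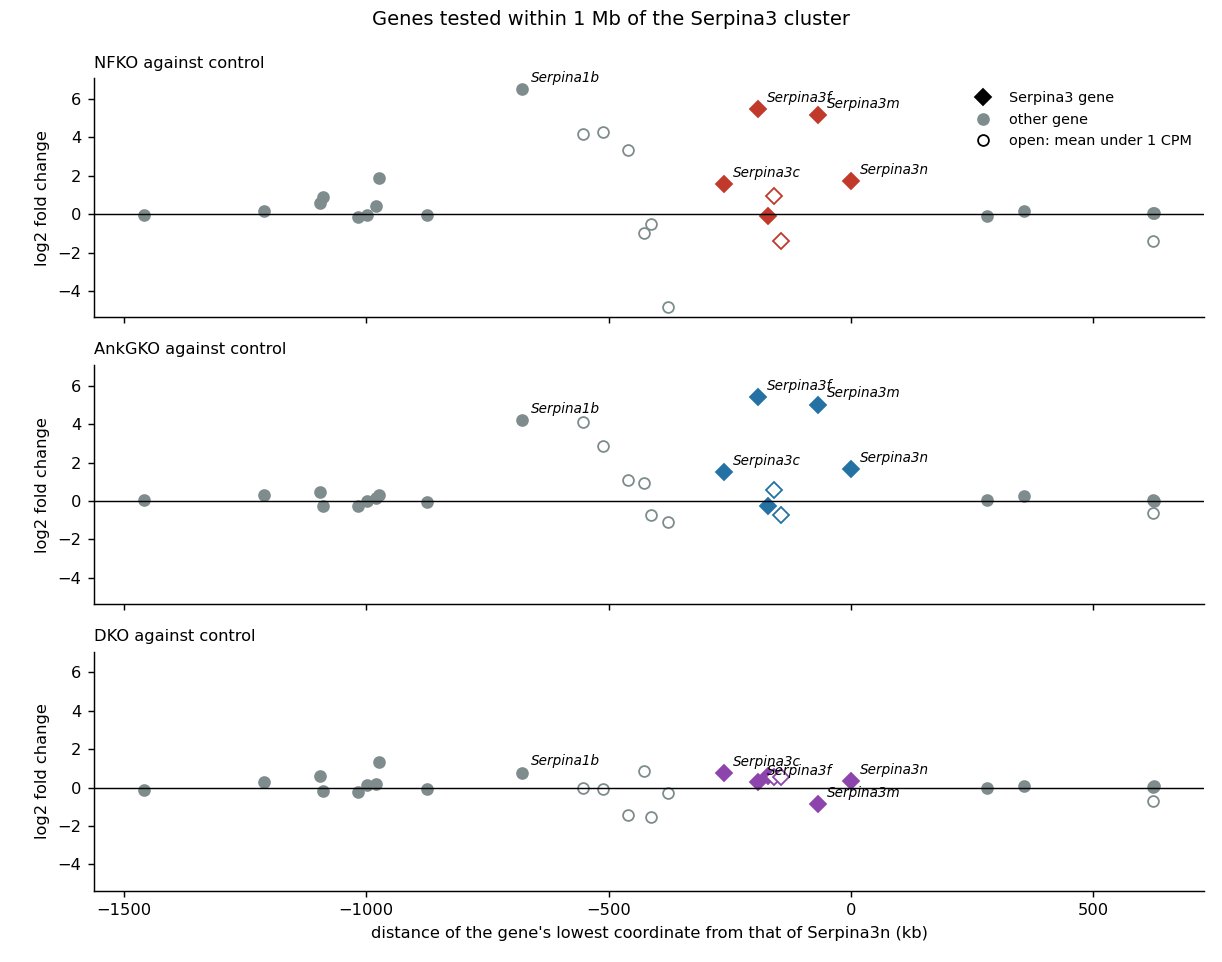
Log2 fold change against control (vertical axis) of each gene tested within 1 Mb of the cluster, by the distance in kb of its lowest coordinate from that of Serpina3n (horizontal axis), for NFKO, AnkGKO and DKO from top to bottom. Diamonds are Serpina3 genes, circles are other genes, and open symbols have a mean under 1 CPM.

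All Serpina3 genes were left out of the next ranking, though Serpina3f (r = 0.982) and Serpina3m (0.969) were closer to Serpina3n than any gene in it. Among 13905 other genes with a mean of at least 1 CPM, log2 CPM over the 11 libraries was compared with that of Serpina3n. The genes most like it were H2-Bl (r = 0.954), Zfp182 (0.945), Copa (0.938), Acadl (0.936) and Ifit3 (0.922). For Serpina3f they were H2-Bl (r = 0.976), Copa (0.954), Zfp182 (0.946), Mut (0.938) and A930015D03Rik (0.914). H2-Bl, a class I histocompatibility gene with near-identical copies, had 94, 86 and 115 reads in control, 832, 727 and 1143 in NFKO, 538 and 514 in AnkGKO, and 125, 67 and 144 in DKO. Its log2 fold changes were 2.89 in NFKO and 2.28 in AnkGKO, between those of Serpina3n and Serpina3f, and 0.046 in DKO. Of the 10 genes most like either gene, those that could be placed lay on chromosomes 1, 3, 6, 11, 17, 19 and X. None lay on chromosome 12, but the Serpina3 genes of that chromosome had been left out beforehand. These likenesses are a description over libraries that share the same 4 genotypes.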

How the data were processed

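Per the labels and the study's methods, polyadenylated RNA was made into strand-specific libraries (batch 1 for all), trimmed with Trimmomatic 0.39 and aligned to GRCm39 with STAR 2.7.11a by the authors. The authors deposited raw read counts per gene symbol for 22609 genes, in 1 column per library, and a normalized signal table, which the files show to be these counts divided by 1 size factor per library (0.815 to 1.16). Only the counts were used. The 5 summary lines of the count table were left out. The study's methods name STAR's gene counts, while the closing lines of the table use the categories of another counter and set apart 23331098 to 32929596 alignments per library as not unique, so reads that match several copies were left out of the gene counts. The labels give single-end reads, whereas the study's methods give paired reads, and the strand setting of the counting is not given in the sources used here.

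Genes with at least 10 counts over the 11 libraries (17557) entered the test of edgeR 4.0.16 (R 4.3.3) with TMM scaling, 1 robust quasi-likelihood fit of all 4 genotypes and p-values adjusted after Benjamini and Hochberg over all these genes. A gene was called at an adjusted p under 0.05 with a log2 fold change of 0.6 or more in size. Adjusted p-values measure the spread between libraries, which the labels call biological replicates. Alternatives were leaving out each library, a block for the replicate number, Xist as a covariate, fits of the compared libraries alone, DESeq2 1.42.0 (local fit), its size factors within edgeR, the expression filter of edgeR or none, and another fold-change threshold. Restricting the fit to the libraries with Ddx3y above 50 CPM, and leaving out both libraries with Xist and Ddx3y, were chosen after seeing the data.

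Replicate numbers come from the sample titles. Control and NFKO libraries of the same number departed from their group means together (r from 0.229 to 0.597 in 3 pairs), whereas this did not hold for every pair of the other groups. No libraries within a group were duplicates. Positions and transcripts came from GENCODE vM39 on GRCm39, in which 18294 symbols matched directly, 2202 as synonyms and 2113 not at all. Promoter windows came from RefSeq, where Serpina3h, Serpina3k and Serpina3m had none. Named are the 11 Serpina3 genes, neighbours called by edgeR in any comparison and the genes most like Serpina3n and Serpina3f. Some genes are also named of each pathway list except NF-kB and inducing cytokines, which is given by its medians only. The members and lists were chosen with earlier results of these data known. Both test procedures were tested on simulated counts.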

Additional observations from a re-analysis of the deposited data

Results flagged for a closer look

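The difference between genotypes was itself tested in the interaction of both deletions, and it brought up 3 members. The interaction on the log2 scale was -3.01 for Serpina3n, -10.57 for Serpina3f and -11.01 for Serpina3m (-14.39 without DKO replicate 1): each was high in NFKO and in AnkGKO and close to its control level in DKO. All libraries of the single knockouts lay above all control and DKO libraries for these 3 genes. This contrast was among the patterns already seen when the genes were chosen.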

How the results depend on the processing

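The direction of Serpina3n, Serpina3f and Serpina3m in both single knockouts against control, in DKO against each single knockout and in the interaction held under every alternative that was run, while their calls did not always hold. With Xist as a covariate Serpina3f was at 5.0 in NFKO, 4.89 in AnkGKO, -4.56 in DKO against NFKO, -4.45 in DKO against AnkGKO and -9.45 in the interaction (adjusted p = 0.164, 0.272, 0.187, 0.476 and 0.232, edgeR), and Serpina3n was at -1.32 in DKO against AnkGKO (0.144), none of them called. The members called then numbered 1 in NFKO, 1 in AnkGKO, 1 in DKO against NFKO, 0 in DKO against AnkGKO and 1 in the interaction, and Serpina3c turned to 0.022 in DKO against NFKO and 0.14 in DKO against AnkGKO. With only the libraries compared, which leaves fewer samples to estimate the spread, Serpina3f and Serpina3n were at 5.40 and 1.64 in AnkGKO (adjusted p = 0.0844 and 0.0546, edgeR) and at -5.09 and -1.30 in DKO against AnkGKO (0.123 and 0.0851), so 0 members were called in either comparison. Within the 7 libraries with Ddx3y above 50 CPM Serpina3n was at 1.76 in NFKO, 1.69 in AnkGKO, -1.22 in DKO against NFKO, -1.14 in DKO against AnkGKO and -2.90 in the interaction (adjusted p = 0.137, 0.261, 0.0970, 0.213 and 0.0627, edgeR), and Serpina3f at 5.32 in AnkGKO and -4.04 in DKO against AnkGKO (0.0886 and 0.0639). There 1 member was called in NFKO, 0 in AnkGKO and 0 in DKO against AnkGKO, and in DKO against control Serpina3g, Serpina3h, Serpina3i and Serpina3m turned to -0.39, -0.59, -0.028 and 0.73, as did Serpina3c to 0.0037 in DKO against AnkGKO. Beyond the smaller number of samples, the cause was not tested. DESeq2 called 4 members in NFKO, 3 in AnkGKO, 3 in DKO against NFKO, 3 in DKO against AnkGKO and 4 in the interaction. Serpina3m was also called in NFKO with only the libraries compared, at 5.16 (adjusted p = 0.00634, edgeR). Leaving out both libraries that hold Xist and Ddx3y turned Serpina3h to 0.34 in DKO against AnkGKO. With the replicate block Serpina3m was called in NFKO at 5.32 (adjusted p = 0.0431, edgeR), and the block changed no other call of a member.

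Leaving out 1 library at a time gave 4.79 to 6.09 for Serpina3f in AnkGKO, -6.08 to -4.49 in DKO against AnkGKO, -0.68 to 1.00 in DKO and -0.34 to 0.68 in NFKO against AnkGKO. In NFKO against AnkGKO it gave -0.18 to 0.38 for Serpina3n, -0.31 to 0.79 for Serpina3m, -0.12 to 0.57 for Serpina3g and -0.0068 to 0.13 for Serpina3c. Serpina3g ranged from -0.28 to 0.091 in NFKO, -0.67 to 0.015 in AnkGKO and -0.062 to 0.84 in DKO, and Serpina3h from -0.45 to 0.35 in DKO against AnkGKO. The members called ranged from 1 to 3 in AnkGKO and from 1 to 3 in DKO against AnkGKO. Serpina3h and Serpina3i are removed by edgeR's expression filter, and the interaction needs all groups, so no values exist for these settings. Depth limits Serpina3h and Serpina3i throughout, and the 2 AnkGKO libraries limit that group.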
